A study of Mus musculus with 8 samples.

Results

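The cytosolic ribosomal protein genes were followed in liver tumours and adjacent liver of mice. Members were taken by symbol from the deposited gene table: Rpl and Rps symbols with a number, the stalk genes Rplp0, Rplp1 and Rplp2, and Rpsa, without the Rps6k kinases and without symbols ending in -ps. The rule chose 84 of 34745 genes, on 19 chromosomes, and used no measured value. Of these, 80 passed the filter on low counts and were tested, and 4 were not (Rpl3l, Rpl10l, Rpl24 and Rpl39l). By gene identifier, 83 of the 84 are protein coding in GENCODE vM21, and Rps4l is annotated there as a transcribed processed pseudogene.

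The ribosome has a small and a large subunit, each built on ribosomal RNA and a set of proteins that are made in near equal numbers. The mRNAs of these proteins are among the most abundant in any cell, and they share a pyrimidine tract at their start (the terminal oligopyrimidine, or TOP, motif) through which mTOR signalling controls their translation. In liver, ribosome production is known to go up during regeneration and in growing tumours. A few members have a second, related gene (a paralogue) whose use depends on the tissue, such as Rpl3l in muscle or Rpl10l in testis.

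RNA sequencing was done on 8 liver samples from age-matched male mice given the liver carcinogen diethylnitrosamine (DEN), taken 8 months after DEN. The groups were tumour and adjacent liver (tissue that the labels call relatively normal) from mice injected with a pT3 vector plasmid, and tumour and adjacent liver from mice injected with pT3 carrying mouse APOBEC3B, which the titles call mA3. All 4 groups carried DEN and a plasmid, with 2 libraries each (vector 1 and 9, mA3 1 and 2), and no untreated liver was analysed here. The labels give neither the strain, nor the promoter of the plasmid, nor the share of cells that took it up. Nothing says that the 2 libraries of a group came from separate mice, so p-values measure the spread between these samples, which may be technical.

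Total counts ran from 12969929 to 22882531 per library. Levels are given as CPM, counts divided by the TMM-scaled library size, as edgeR's cpm function gives them. Apobec3, taken as the plasmid gene, stood at 45.0 and 35.1 CPM in the 2 mA3 adjacent libraries, against 2.71 and 9.96 CPM in the vector adjacent ones. Tumour libraries labelled mA3 held 10.6 and 15.3 CPM, and vector tumours 7.85 and 15.2 CPM. The tumour groups thus overlapped, and the mA3 tumours are therefore called labelled mA3 tumours below. All 8 hepatocyte markers looked for were detected, with a summed level of 40492 to 212125 CPM. Genes of the mitochondrial genome took 13.3% of the counts in vector adjacent 9 and 15.2% in vector tumour 1, against 3.51% to 9.96% in the other 6 libraries.

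Ribosomal protein genes took 1.38% (vector adjacent 1) and 1.42% (vector adjacent 9) of all counts in vector adjacent liver, and 1.45% (vector tumour 1) and 1.82% (vector tumour 9) in vector tumours. In mA3 mice they took 1.2% (mA3 adjacent 1) and 1.93% (mA3 adjacent 2) in adjacent liver, and 1.52% and 1.51% in the labelled tumours. The lowest and the highest share of the 8 libraries thus both came from mA3 adjacent liver, and the other 6 lay between them. The exact 95% binomial interval of each share was at most 0.00713 percentage points to either side, for counting error only. Group means were 1.40% ± 0.0266 (SD, n = 2) in vector adjacent, 1.64% ± 0.258 in vector tumour, 1.56% ± 0.517 in mA3 adjacent and 1.51% ± 0.0102 in labelled mA3 tumour. Members of the large subunit took 58.5% to 60.6% of the members' counts in every library.

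Per length, as deposited FPKM, the highest member was Rplp1, an acidic protein of the stalk of the large subunit, with a mean of 560 over the 8 libraries. Rps12, a small-subunit protein, followed at 513 and Rpl4, a core protein of the large subunit, at 400. At the other end, Rpl3l and Rpl39l averaged 0.0472 and 0.00445 FPKM, and Rpl10l had 0 counts in all 8 libraries, which allows up to 0.124 to 0.235 CPM per library (3 counts). These 3 are paralogues. Rpl24, a large-subunit protein that ordinarily every cell makes, held 0.0829 to 0.871 CPM and averaged 0.256 FPKM. It shares its strand and position with another gene row, so its level is uncertain. The length implied by the deposited counts and FPKM was 11869 bp for Rps15a, which has 390 bp of coding sequence and only 10.9 FPKM. For Rpl9 it was 10922 bp, more than the span of the gene (chromosome 5, 65388364 to 65391444). How these lengths were built is not known here, and the order of FPKM depends on them.

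Most members went up and down together from library to library. Each member's log2(CPM + 1) was set against its own mean over the 8 libraries. In mA3 adjacent 1, 79 of 80 tested members were below their mean, with a median of -0.39 on the log2 scale, and 56 of the 80 had their lowest level there. In mA3 adjacent 2, 78 of 80 were above their mean, with a median of 0.33, and 42 had their highest level there. Vector tumour 9 was the other library with nearly all members on 1 side, at a median of 0.28 with 73 above. Vector adjacent libraries had medians of -0.06 (1) and -0.00 (9), vector tumour 1 had 0.10, and the labelled mA3 tumours had -0.09 (1) and -0.12 (2). Over all genes tested, the median stayed between -0.04 and 0.00 in every library. The subunits moved alike: in mA3 adjacent 1 the median was -0.37 over 47 large-subunit members and -0.41 over 33 small-subunit members.

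**Figure D1:**
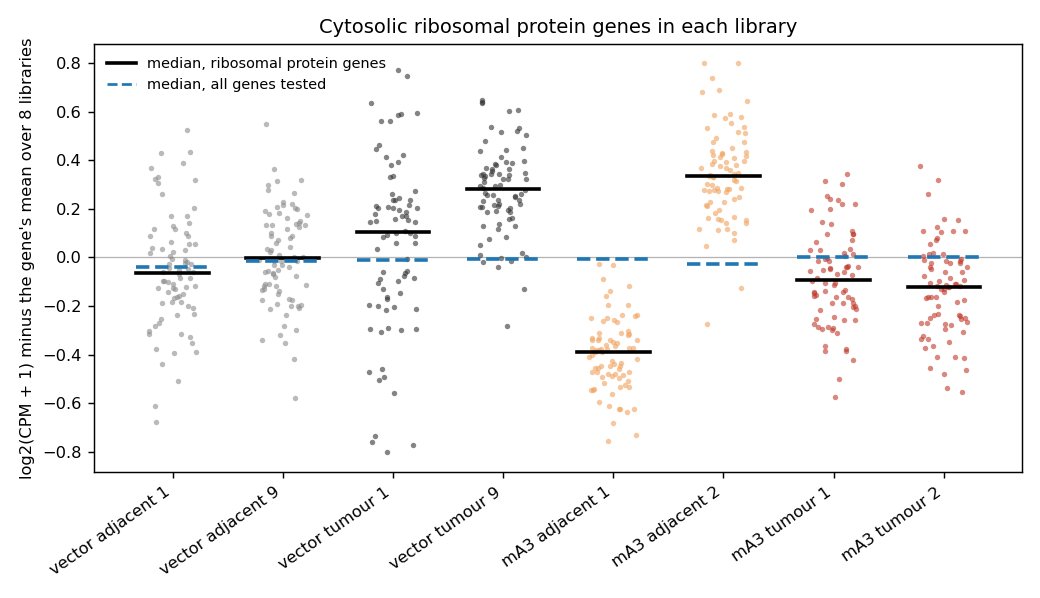
Deviation of each tested ribosomal protein gene from its own mean, as log2(CPM + 1), in each of the 8 libraries. Points are 79 genes (Rps4l, which ranged more widely, is not drawn), black bars their median with Rps4l included, and dashed lines the median over all genes tested. The black bar is lowest in mA3 adjacent 1 (-0.39) and highest in mA3 adjacent 2 (0.33).

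The level of a member correlated with the median of the other members at a median Pearson r of 0.82 over 8 libraries, given as a description, since all members share the same libraries. Of 80 members, 66 had an r over 0.5 and 20 an r over 0.9. Rpl26, a large-subunit protein, was highest at 0.99, followed by Rps23, of the decoding centre, at 0.98. Rps4l (-0.07), Rpl7l1 (-0.05), Rpl22l1 (0.07) and Rpl3 (0.14) were lowest, and 3 of these 4 are paralogues. The highest level of a member over the libraries was 1.88 times its lowest at the median, over 2 times in 31 members and over 3 times in 2.

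The start regions of 4 members that followed the group closely (Rpl26, Rps23, Rpl14 and Rpl34) and of the 4 with a RefSeq window that followed it least (Rpl7l1, Rpl22l1, Rpl5 and Rplp0) are shown, so that the TOP tract can be seen beside that difference. They were chosen after their values were seen. The first set is not strictly by rank: Rps21 (r of 0.952) followed the group more closely than Rpl34 (0.951) and is not shown. The windows of Rps21 hold no run of at least 8 pyrimidines. Sequences are from RefSeq, build GRCm38.p6, written 5′ to 3′ on the strand of the gene, 30 bases before the start and 20 after. Capitals mark runs of at least 8 pyrimidines.
Rpl26 (chr11:68901536-68901585, plus strand): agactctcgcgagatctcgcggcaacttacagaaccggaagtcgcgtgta
Rps23 (chr13:90923092-90923141, plus strand): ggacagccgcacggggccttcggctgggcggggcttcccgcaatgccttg
Rpl14 (chr9:120571487-120571536, plus strand): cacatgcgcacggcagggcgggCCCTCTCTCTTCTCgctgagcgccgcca
Rpl34 (chr3:130730318-130730367, minus strand): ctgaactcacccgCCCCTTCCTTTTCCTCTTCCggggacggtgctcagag
Rpl7l1 (chr17:46782637-46782686, minus strand): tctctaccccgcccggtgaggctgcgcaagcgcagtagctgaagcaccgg
Rpl22l1 (chr3:28805478-28805527, plus strand): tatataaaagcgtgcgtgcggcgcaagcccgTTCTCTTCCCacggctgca
Rpl5 (chr5:107900498-107900547, plus strand): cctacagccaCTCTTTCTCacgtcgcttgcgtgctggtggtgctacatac
Rplp0 (chr5:115559437-115559486, plus strand): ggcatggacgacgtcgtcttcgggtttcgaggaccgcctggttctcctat
Both sets hold members with such a run and members without one. RefSeq windows were matched by symbol for 63 of the 84 members. A run of at least 8 pyrimidines on the gene's strand, within 25 bases of the annotated start, was found in 33 of the 63 (52.4%), against 22.3% of 27025 genes. Within 250 bases before and 50 after the start, on either strand, CCGGAAG (the core of Ets-family sites) was found in 41.3% of members and 9.93% of genes. The corresponding shares were 61.9% and 38.2% for GGGCGG (the GC box) and 9.52% and 3.19% for AAGATGGC (the core of YY1 sites). TATAAA was found in 11.1% of members and 15.7% of genes. In tumour against adjacent liver over both plasmids, the median log2 difference was 0.07 in the 32 tested members with a pyrimidine run and 0.07 in the 27 without.

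No difference in these mRNAs between tumour and adjacent liver was resolved over both plasmids, and likeness of levels was not tested. The median log2 difference, tumour minus adjacent, was 0.04 over the 80 members, with 51 above 0, and 0.01 over all 15009 genes tested. By plasmid the members' median was 0.24 in vector mice and -0.15 in mA3 mice. In the quasi-likelihood test of edgeR, with p adjusted over all 15009 genes, 0 of 80 members passed at 0.05, where 4.64% of all genes did. At an unadjusted p under 0.05 the count was also 0, where 22.4% of all genes passed. DESeq2, limma-voom and limma on FPKM called 0 as well. Over all 15009 genes these tools called 1054, 249 and 325 higher and 886, 209 and 189 lower, in that order. In 0 members were all 4 tumour libraries above or all 4 below the adjacent libraries (background 6.81% higher and 5.32% lower). The median SE of a member's log2 difference was 0.26. The median over members turned on the mA3 adjacent libraries, at -0.12 without the first and 0.24 without the second.

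The 3 members of smallest p on the higher side were Rps12, Rpl38 and Rpl12. Rps12 stood at 189 and 208 CPM in vector adjacent 1 and 9, 252 and 369 CPM in vector tumour, 142 and 260 CPM in mA3 adjacent, and 274 and 254 CPM in labelled mA3 tumour. Its levels in tumour overlapped those in adjacent liver only through mA3 adjacent 2. The log2 difference of Rps12 was 0.52 ± 0.28 (SE, edgeR adjusted p = 0.313). Rpl38, a large-subunit protein known for its role in translating Hox mRNAs in the mouse embryo, had 0.40 ± 0.27 (edgeR adjusted p = 0.421), and Rpl12, at the base of the stalk, 0.32 ± 0.23 (edgeR adjusted p = 0.466). On the lower side, Rps2, at the mRNA entry of the small subunit, had -0.39 ± 0.27 (edgeR adjusted p = 0.437). The paralogue Rpl7l1 had -0.35 ± 0.24 (edgeR adjusted p = 0.441) and Rps4l -0.98 ± 0.73 (edgeR adjusted p = 0.472).

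In vector mice the tumour libraries held more of most members, by amounts within the SE for many of them. The median log2 difference was 0.24 over the members, with 63 of 80 above 0, and 0.04 over all genes. Without vector tumour 9 the median was 0.14, with 49 of 81 above 0. In 35 members (43.8%) both vector tumours were above both vector adjacent libraries, where 18.2% of all genes were. In 1 member, Rpl9, they were below, against 16.5% of all genes. No member passed in edgeR (0 of 80, and 0% of all genes), and 0 had an unadjusted p under 0.05 (9.31% of all genes). DESeq2 called 0 members, where over all 15009 genes it called 177 higher and 51 lower. Rpl38 stood at 25.5 and 48.8 CPM in vector adjacent 1 and 9 and at 68.1 and 60.7 CPM in vector tumour, so the groups did not overlap. Its log2 difference was 0.80 ± 0.38 (edgeR adjusted p = 0.542).

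Rps29, a small-subunit protein that binds zinc, stood at 26.7 and 42.6 CPM in vector adjacent and at 53.3 and 54.9 CPM in vector tumour, without overlap. Its log2 difference was 0.64 ± 0.38 (edgeR adjusted p = 0.579), and that of Rps12 was 0.65 ± 0.40 (edgeR adjusted p = 0.596). On the lower side were Rpl7l1 at -0.55 ± 0.35 (edgeR adjusted p = 0.600), Rpl9 at -0.59 ± 0.49 (edgeR adjusted p = 0.672) and Rps3 at -0.37 ± 0.43 (edgeR adjusted p = 0.751). Rps3 is a small-subunit protein that also has a known role in DNA repair.

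In mA3 mice the members lay slightly to the lower side in labelled tumours. The median log2 difference was -0.15, with 18 of 80 above 0, and -0.00 over all genes. No edgeR call was made among the 80 members, where 1.19% of all genes passed. At an unadjusted p under 0.05 the count was 1 of 80 (Rps4l), where 20% of all genes passed. DESeq2 called 1 (Rps4l), where over all 15009 genes it called 825 higher and 782 lower. Limma-voom and limma on FPKM called 0, where over all genes they called 65 and 267 higher and 46 and 128 lower. In 0 members were both labelled mA3 tumours above both mA3 adjacent libraries (background 29.7%), and in 5 (6.25%) they were below (background 28.3%): Rpl28, Rpl35a, Rps2, Rps27l and Rps4l. Because mA3 adjacent 1 and 2 lay at opposite ends for most members, the median turned on them. It was -0.39 without mA3 adjacent 1 and 0.32 without mA3 adjacent 2.

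Rps2 stood at 265 and 408 CPM in mA3 adjacent 1 and 2 and at 207 and 194 CPM in labelled mA3 tumour, without overlap. Its log2 difference was -0.75 ± 0.38 (edgeR adjusted p = 0.330), and its reads may be shared with the near copy Rps2-ps6, whose row held 5342 counts over the 8 libraries. Rps27l, a paralogue of Rps27 that p53 is known to induce, had -0.70 ± 0.38 (edgeR adjusted p = 0.362). On the higher side were Rps12 at 0.40 ± 0.39 (edgeR adjusted p = 0.666), Rps6 at 0.33 ± 0.42 (edgeR adjusted p = 0.750) and Rpl22l1 at 0.30 ± 0.39 (edgeR adjusted p = 0.760).

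Between tumours of the 2 plasmids, labelled mA3 tumours held less of most members than vector tumours. The median log2 difference, mA3 minus vector, was -0.29, with 65 of 80 below 0, and -0.02 over all genes. In 47 members (58.8%) both labelled mA3 tumours were below both vector tumours, where 27.4% of all genes were. In 4 (Rpl3, Rpl5, Rpl7l1 and Rpl9) they were above, where 27.8% of all genes were. No member passed in edgeR (0 of 80, and 0% of all genes). At an unadjusted p under 0.05 the count was 7 of 80, among them Rps4l, Rpl36 and Rps29, where 14.2% of all genes passed. Leaving out a tumour library leaves a single one in its group, so only effect sizes are given for those fits. The median was -0.41 without vector tumour 1, -0.32 without labelled mA3 tumour 1 and -0.28 without labelled mA3 tumour 2. Without vector tumour 9 it was -0.21, and the members below 0 were 49 of 81. As a share of counts the members differed by -0.121 percentage points between the tumour groups, but by 0.162 points the other way as a share of summed FPKM. DESeq2 called 1 (Rps4l), where over all 15009 genes it called 152 higher and 335 lower. Limma-voom and limma on FPKM called 0 members and 0 of all genes.

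Rpl36, a short large-subunit protein, stood at 115 and 93.7 CPM in vector tumour 1 and 9 and at 45.5 and 49.2 CPM in labelled mA3 tumour 1 and 2, without overlap. Its log2 difference was -1.14 ± 0.37 (edgeR adjusted p = 0.305), and that of Rps29 was -0.99 ± 0.38 (edgeR adjusted p = 0.325). On the higher side, Rpl3, a loop of which reaches the peptidyl transferase centre, had 0.57 ± 0.45 (edgeR adjusted p = 0.577), Rpl5 0.48 ± 0.46 (edgeR adjusted p = 0.645) and Rpl7l1 0.44 ± 0.35 (edgeR adjusted p = 0.570). Rpl3 stood at 178 and 263 CPM in vector tumour and at 327 and 328 CPM in labelled mA3 tumour.

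In adjacent liver the plasmids did not separate the members. The median log2 difference, mA3 minus vector, was 0.04, against -0.01 over all genes. By edgeR 0 of 80 members passed (0% of all genes), and 0 at an unadjusted p under 0.05 (1.03% of all genes). DESeq2 called 0 members and 0 of all 15009 genes. In 0 members did the groups lie apart in either direction (background 10.4% higher and 9.9% lower). The members of smallest p were Rps15a at 0.30, Rps4l at 0.67 and Rpl41 at 0.31 on the higher side, and Rpl38 at -0.17, Rps28 at -0.19 and Rpl28 at -0.13 on the lower side, each with an edgeR adjusted p of 1. Leaving out 1 mA3 adjacent library moved the median to 0.35 (without the first) or -0.41 (without the second).

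The interaction, which compares the tumour difference of mA3 mice with that of vector mice, called 0 of 80 members with edgeR (0% of all genes), and 1 at an unadjusted p under 0.05 (4.99% of all genes). The median difference of differences was -0.38, with 13 of 80 above 0, and -0.04 over all genes. It was -0.64 without mA3 adjacent 1 and 0.09 without mA3 adjacent 2. The members of smallest p were Rps4l at -4.31 ± 1.5, Rpl35a at -1.04 ± 0.53 and Rpl36 at -1.02 ± 0.52 (edgeR adjusted p = 0.842 each) on the lower side. On the higher side Rpl7l1 had 0.40 ± 0.49 (edgeR adjusted p = 0.894), Rpl3 0.50 ± 0.64 (edgeR adjusted p = 0.899) and Rpl5 0.45 ± 0.65 (edgeR adjusted p = 0.909). The comparisons share libraries, so their values are not independent of each other.

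**Figure D2:**
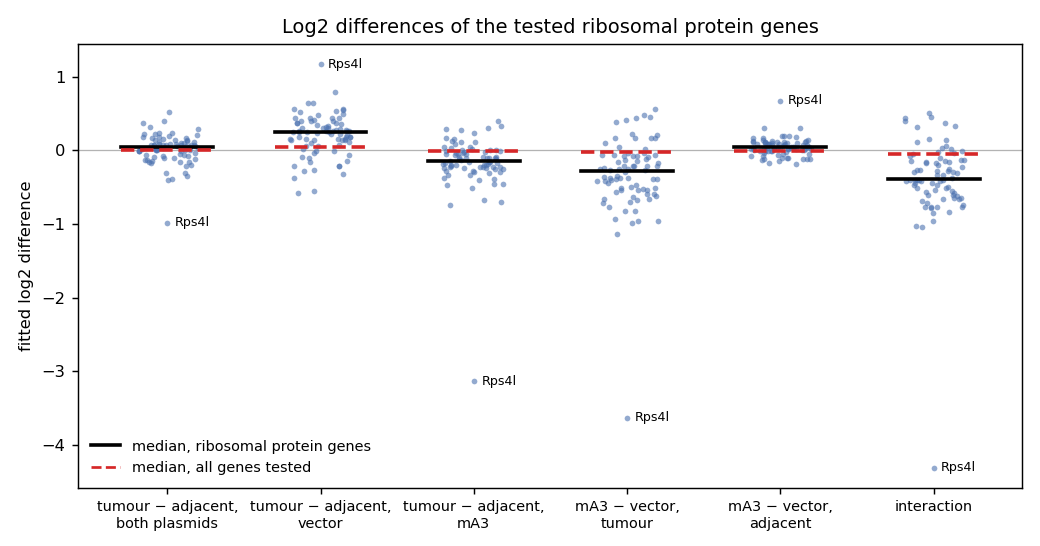
Fitted log2 differences of the 80 tested ribosomal protein genes in the 6 comparisons, 1 point per gene, with the median of these genes (black bar) and of all genes tested (dashed line). The black bar lies at 0.24 in vector mice, -0.15 in mA3 mice and -0.29 between labelled mA3 and vector tumours, and Rps4l lies apart from the others.

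The stalk proteins recruit translation factors to the large subunit. Rplp0, their anchor, stood at 483 and 382 CPM in vector adjacent 1 and 9, 279 and 581 CPM in vector tumour, 345 and 607 CPM in mA3 adjacent, and 574 and 603 CPM in labelled mA3 tumour. The labelled mA3 tumours were close to each other. Vector tumour and mA3 adjacent libraries were spread widely, and vector adjacent libraries less so. Rplp1 stood at 309 and 351 CPM in vector tumour, and at 221 and 227 CPM in labelled mA3 tumour. Here, unlike for Rplp0, the 2 tumour groups did not overlap. The log2 difference between the tumour groups, mA3 minus vector, was 0.45 ± 0.47 for Rplp0 (edgeR adjusted p = 0.667), -0.56 ± 0.41 for Rplp1 (edgeR adjusted p = 0.545) and -0.27 ± 0.35 for Rplp2 (edgeR adjusted p = 0.730). The differences among these 3 genes were not tested, and Rplp0 in vector tumour 1 lay far below the other 3 tumours.

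Rpl5 and Rpl11 form a small particle with a ribosomal RNA, and when free they bind Mdm2, the ligase that degrades p53. Rpl5 stood at 294 and 201 CPM in vector adjacent 1 and 9, 140 and 266 CPM in vector tumour, 174 and 331 CPM in mA3 adjacent, and 280 and 285 CPM in labelled mA3 tumour. Rpl11 stood at 234 and 226 CPM, 256 and 263 CPM, 193 and 281 CPM, and 200 and 188 CPM in the same order. The labelled mA3 tumours were above both vector tumours for Rpl5 and below both for Rpl11. The log2 difference between tumours was -0.42 ± 0.33 for Rpl11 (edgeR adjusted p = 0.562).

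Rps6, which S6 kinase phosphorylates downstream of mTOR, stood at 461 and 337 CPM in vector adjacent 1 and 9, 388 and 572 CPM in vector tumour, 313 and 545 CPM in mA3 adjacent, and 572 and 503 CPM in labelled mA3 tumour. Its tumour and adjacent levels overlapped, at a log2 difference of 0.30 ± 0.29 over both plasmids (edgeR adjusted p = 0.598). Rpsa, the small-subunit protein also known as the laminin receptor, ranged from 431 to 659 CPM, with 0.23 ± 0.26 (edgeR adjusted p = 0.650).

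Among the paralogues, Rps4l had by far the widest range. It stood at 6.67 and 11.8 CPM in vector adjacent 1 and 9, 37.8 and 3.59 CPM in vector tumour, 21.1 and 8.17 CPM in mA3 adjacent, and 0.640 and 2.65 CPM in labelled mA3 tumour. The 2 vector tumours were the highest and the third lowest of the 8 libraries, and both labelled mA3 tumours were below all others. The log2 difference was -3.14 ± 1.11 in mA3 mice (edgeR adjusted p = 0.168) and -3.63 ± 1.13 between the tumours (edgeR adjusted p = 0.296). DESeq2 called both, at an adjusted p of 0.0115 and 0.00798, and over all alternatives the adjusted p ran from 7.64e-09 to 0.597 and from 1.09e-10 to 0.910. Rps4l (ENSMUSG00000063171, chromosome 6, 148354656 to 148355598, plus strand, GRCm38) lies within the position of Tmtc1, whose row held 221 counts over the 8 libraries against 1688 for Rps4l. Its parent Rps4x, an X-linked small-subunit gene, stood at 353 and 235 CPM, 158 and 314 CPM, 196 and 369 CPM, and 315 and 300 CPM in the order of groups above. Vector tumour 1, where Rps4l was highest, was the library where Rps4x was lowest. Whether reads were shared between Rps4l and Rps4x is not known here. Rps4l rested on 13 and 64 counts in labelled mA3 tumour 1 and 2. Its log2 difference between the tumours ran from -5.00 to -1.11 when 1 library was left out.

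Rpl7l1, which in yeast has a counterpart in large-subunit assembly, stood at 76.3 and 42.8 CPM in vector adjacent 1 and 9, 38.2 and 43.3 CPM in vector tumour, 51.8 and 70.9 CPM in mA3 adjacent, and 53.5 and 56.9 CPM in labelled mA3 tumour. Its parent Rpl7 ranged from 271 to 436 CPM. Rpl22l1 ranged from 4.41 to 9.23 CPM and its parent Rpl22 from 61.1 to 132 CPM. In tumour against adjacent liver over both plasmids, Rpl22l1 had a log2 difference of 0.37 ± 0.28 (edgeR adjusted p = 0.480) and Rpl22 one of -0.30 ± 0.27 (edgeR adjusted p = 0.559). Rps27l, at 56.4 to 125 CPM, held about as many reads as Rps27, at 43.3 to 123 CPM. Between tumours both were lower in the labelled mA3 group, by -0.77 ± 0.38 for Rps27l (edgeR adjusted p = 0.384) and -0.65 ± 0.48 for Rps27 (edgeR adjusted p = 0.545). Of the pairs whose paralogue was barely detected, the parent Rpl10 ranged from 387 to 571 CPM, Rpl3 from 176 to 355 CPM and Rpl39 from 25 to 56.1 CPM.

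**Figure D3:**
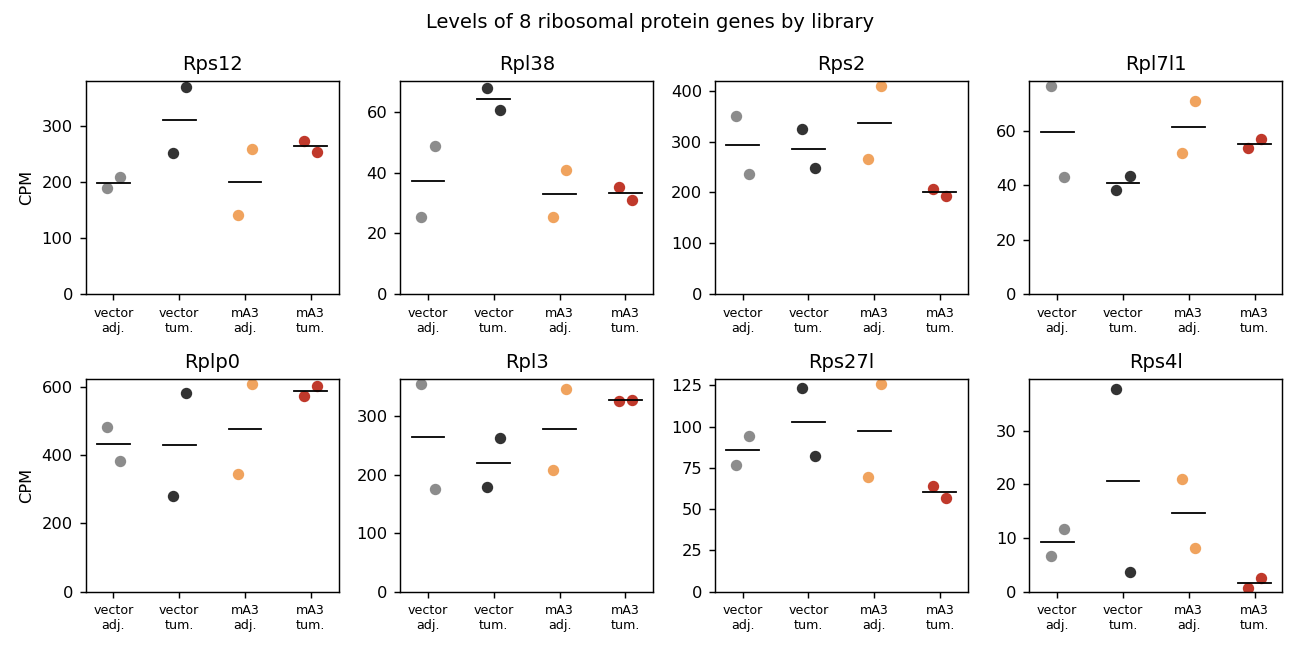
CPM of 8 ribosomal protein genes in each library, by group (adj., adjacent liver; tum., tumour), with bars at the group mean of 2 libraries and axes from 0. The labelled mA3 tumours lie close together in most panels, while Rps4l is at 37.8 and 3.59 CPM in the 2 vector tumours.

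Short and long members parted from each other in several libraries. The 79 tested members with a coding length ran from 138 to 1257 bp and were split into 28 of at most 405 bp, 26 over 582 bp and 25 between. The median deviation of the short members minus that of the long ones was -0.27 and 0.30 in vector adjacent liver (1 and 9), and 0.33 and 0.14 in vector tumours (1 and 9). In mA3 mice it was -0.13 and 0.10 in adjacent liver (1 and 2), and -0.25 and -0.23 in labelled tumours (1 and 2). Replicates of vector adjacent liver, and those of mA3 adjacent liver, thus lay on opposite sides. Over all tested genes of the same lengths (673 short and 4374 long) the values had the same sign in every library, at -0.12, 0.10, 0.22, 0.06, -0.05, 0.15, -0.16 and -0.21 in that order.

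Across the 79 members, log2 coding length correlated with the log2 difference at a Pearson r of -0.58 in vector mice, 0.45 in mA3 mice, 0.69 between tumours of the 2 plasmids and 0.72 for the difference of differences. It was -0.17 over both plasmids and -0.02 in adjacent liver. Over 13343 other genes, of any coding length, r lay between -0.07 and 0.12. It was not computed for other genes of the members' lengths only, so these r values are not alike in range. Members share libraries and are not independent replicates, so these are descriptions. Between the tumours, the median log2 difference was -0.59 in the 28 short members and -0.07 in the 26 long ones. The share of mitochondrial-genome counts, 15.2% and 7.0% in vector tumour 1 and 9 and 3.51% and 3.81% in labelled mA3 tumour 1 and 2, lay apart between the same groups, and its part in the relation to length was not tested. Without vector tumour 1 and vector adjacent 9, the libraries where it was highest, the median log2 difference between tumours was -0.41 over the members. A single library was then left in the vector tumour group.

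**Figure D4:**
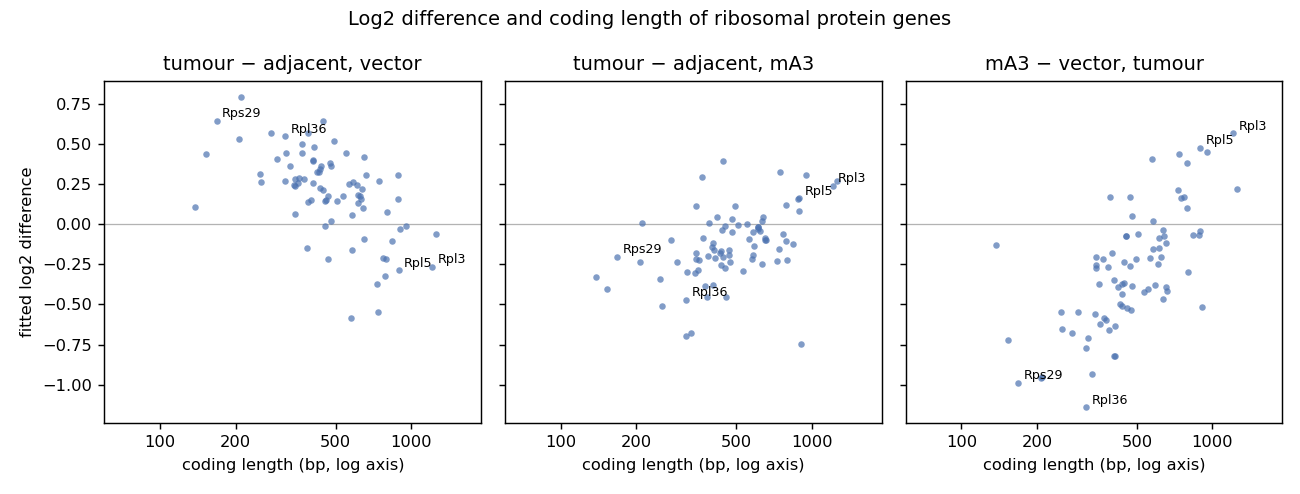
Fitted log2 difference of each tested ribosomal protein gene against its coding length in bp (log axis), in vector mice (tumour minus adjacent), mA3 mice (tumour minus adjacent) and tumours (mA3 minus vector). Rps4l has no coding length and is not drawn. Pearson r was -0.58, 0.45 and 0.69 across 79 genes.

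Other genes of protein synthesis, from lists of known members, were compared over both plasmids, and none of them passed in edgeR in tumour against adjacent liver. The median log2 difference was -0.05 over 15 other TOP mRNAs, -0.01 over 41 ribosome assembly genes, 0.19 over 15 genes of RNA polymerase I and its factors, -0.21 over 34 initiation factor genes, and 0.10 over 20 growth regulators of the mTOR and Myc pathways. At an unadjusted p under 0.05 there were 0, 3, 1, 1 and 4 genes in the same order, where 22.4% of all genes passed. Gar1, of the particles that modify ribosomal RNA, had 0.94 ± 0.27 (edgeR adjusted p = 0.0839), and Ddit4, an inhibitor of mTOR, 1.49 ± 0.42 (edgeR adjusted p = 0.0825).

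The ribosomal proteins of mitochondria, which are built into a separate ribosome, had a median of -0.31 over 76 genes, with 7 above 0 and 11 at an unadjusted p under 0.05, a smaller share than the 22.4% of all genes. By plasmid the median was -0.13 in vector mice, with 29 above 0, and -0.47 in mA3 mice, with 7 above 0. Mrpl34 had -0.70 ± 0.19 (edgeR adjusted p = 0.0765). The difference from the cytosolic set, whose median was 0.04, was not tested.

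Proliferation markers, which mark dividing cells, summed to 7.47 to 24.5 CPM in adjacent liver and 23.3 to 87.0 CPM in tumours. All 8 lay above 0 in tumour against adjacent liver, at a median log2 difference of 2.10, and 0 of 8 passed in edgeR (7 at an unadjusted p under 0.05, where 22.4% of all genes passed). Aurkb, a mitotic kinase, had 2.18 (edgeR adjusted p = 0.0548). The cytosolic ribosomal protein genes did not follow this order in mA3 adjacent liver or in the labelled mA3 tumours. Proliferation markers summed to 8.17 CPM in mA3 adjacent 2, where most ribosomal protein genes were above their mean. They summed to 24.5 CPM in mA3 adjacent 1, where most were below it. In vector tumour 9, where the proliferation sum was highest (87.0 CPM), 73 of 80 ribosomal protein genes were above their mean. In vector tumour 1 (23.3 CPM) 48 were above. The labelled mA3 tumours 1 and 2 had proliferation sums of 68.6 and 48.8 CPM, and 56 and 63 of 80 ribosomal protein genes were below their mean. Over 10 marker lists of 80 genes, 72 were tested and 4 passed in edgeR over both plasmids (4.64% of all genes passed), Spp1 and Apoa1 higher and Clec4f and Alas2 lower. In mA3 adjacent 1 and 2, where ribosomal protein levels were furthest apart, hepatocyte markers summed to 52469 and 60221 CPM, macrophage markers to 376 and 388 CPM, and B cell markers to 30.3 and 50.5 CPM. Erythroid markers there summed to 359 and 443 CPM, neutrophil markers to 11.3 and 7.0 CPM, T cell markers to 9.28 and 9.54 CPM, endothelial markers to 280 and 275 CPM, stellate cell markers to 183 and 173 CPM and bile duct markers to 77.4 and 83.7 CPM. Such sums can hide single markers. Alb made up most of the hepatocyte sum, at 31679 and 38031 CPM in mA3 adjacent 1 and 2. Hnf4a stood there at 372 and 726 CPM, and Tat at 1343 and 942 CPM. Among macrophage markers, Adgre1 stood at 7.84 and 24.4 CPM and Cd68 at 15.5 and 9.68 CPM. No marker of these lists was at 0 in all 8 libraries. The part of cell composition in the ribosomal protein levels was not tested, and in such bulk tissue fewer cells of a type and less RNA per cell cannot be told apart.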

How the data were processed

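Per the file headers, the deposited table holds read counts and FPKM values by gene and library. Every deposited count was a whole number. The submitters' processing notes name Agilent Feature Extraction 10.7 and build mm8, which do not describe such a table. For aligner, counter, annotation release and strand handling, information was not given in the sources used here, so reads of overlapping or antisense genes cannot be told apart. Of the 84 members, 61 had positions within 1 bp of GENCODE vM21 (GRCm38), the build taken here. Of the members, 23 overlap another row and 17 have a near copy in the table.

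Counts were fitted with edgeR 4.0.16 (R 4.3.3): filterByExpr by group (15009 genes), TMM factors (0.908 to 1.06), 1 coefficient per group over 8 libraries, quasi-likelihood test, 4 residual degrees of freedom, and Benjamini-Hochberg adjustment over all genes tested with a threshold of 0.05. The biological coefficient of variation was 39.1%. The SE of a log2 difference came from its F statistic. FPKM values, which the authors scaled by library and gene length, were used for levels between genes and in an alternative (limma on log2 of FPKM + 1). DESeq2 1.42.0, limma-voom (limma 3.58.1), other scalings and leaving out libraries were the other alternatives. Coding lengths came from GENCODE vM21 and start regions from RefSeq. In each comparison the 3 members of smallest p per direction were named, together with stalk, p53-pathway and S6 genes, paralogues with parents, and the 3 highest and lowest members by FPKM. The members and the gene lists were chosen with earlier results of these data known. The script was tested on simulated data. Samples were grouped by their labels, and none was left out. Some items are not reported here.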

Additional observations from a re-analysis of the deposited data

Results flagged for a closer look

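In the 4 tumour libraries, 6 members had 1 library that stood apart, always vector tumour 1, among 64 groups of 4 libraries examined. Chance gives about 1 such group in 20 where the 4 values come from 1 population and the groups are independent. Here members share libraries and the tumours come from both plasmids, so the count of 6 cannot be judged by that rate. The gap to the nearest library, 0.838 to 0.921 of the whole range, was above Dixon's 95% critical value for 4 samples. Rplp0 (279 CPM), Rps4x (158 CPM), Rpl5 (140 CPM), Rps3 (136 CPM) and Rpl9 (83.4 CPM) were lowest there, and 4 of these 5, without Rpl9, are among the 26 members with over 582 bp of coding sequence. Rps4l (37.8 CPM) was highest there. The same library held the largest share of mitochondrial-genome counts, 15.2%, and its part in these values was not tested.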

How the results depend on the processing

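With groups of 2 libraries the precision is low, and most values rest on single libraries. The count of members called stayed at 0 in all 6 comparisons under most alternatives. With no filter on low counts it was 1, Rps4l, over both plasmids, in mA3 mice, between tumours and for the difference of differences. It was also 1, Rps4l, with DESeq2 (mA3 mice and between tumours) and with only the groups compared fitted (mA3 mice). These settings called more of all genes too. With no filter, 1080 were higher and 983 lower of 23237 in mA3 mice, and 393 and 691 between tumours. With only the groups compared, 1157 and 1112 of 14567 were called in mA3 mice, where the main fit called 118 and 60 of 15009. The cause was not tested. Without the filter, Rps4l had an edgeR adjusted p of 0.0232 over both plasmids and 7.64e-09 in mA3 mice. It had 1.09e-10 between tumours and 4.42e-08 for the difference of differences, and 0.0334 with only the groups compared. Leaving out vector tumour 1 and vector adjacent 9, the libraries of high mitochondrial share, was an alternative chosen after seeing the data. It left a single library in each vector group, so only the log2 difference of Rps4l is given, -3.14 in mA3 mice.

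Over all alternatives that do not leave out a single library (scalings, tools, no filter, the block, only the groups compared, and without these 2 libraries), the median log2 difference of the members ran from 0.02 to 0.11 over both plasmids, 0.23 to 0.31 in vector mice, -0.17 to -0.07 in mA3 mice, -0.41 to -0.21 between tumours, 0.02 to 0.16 in adjacent liver and -0.47 to -0.30 for the difference of differences. Library totals alone moved the median of all genes to 0.11 in vector mice and 0.11 in adjacent liver, where the members' medians were 0.31 and 0.16. Leaving out 1 library moved the median to between 0.14 and 0.30 in vector mice, -0.39 and 0.32 in mA3 mice, -0.41 and 0.35 in adjacent liver, and -0.64 and 0.0937 for the difference of differences.

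The difference in the share of counts was 0.601 percentage points in vector mice when the 50 most abundant other genes were left out of the library sum (0.234 with them), and 0.299 in mA3 mice with summed FPKM and 0.162 without the 50 genes (-0.0504 with counts). Between tumours it was 0.162 with summed FPKM and -0.121 with counts. Leaving out 1 library moved it to between 0.0519 and 0.417 in vector mice, -0.303 and 0.0618 between tumours, -0.416 and 0.315 in mA3 mice, -0.202 and 0.530 in adjacent liver, and -0.651 and 0.0810 for the difference of differences. These causes were not tested.

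Of 660 values of the named members under alternatives, 637 kept direction and side of the threshold and 15 changed sign. In adjacent liver Rpl38 was at 0.37, Rps28 at 0.57 and Rpl28 at 0.26 without the 2 libraries of high mitochondrial share, and Rps28 was at 0.0202 and Rpl28 at 0.0337 with limma on FPKM. There, leaving out 1 library gave -0.44 to 0.26 for Rpl28, -0.56 to 0.37 for Rpl38, -0.57 to 0.83 for Rpl41, -0.27 to 0.69 for Rps15a, -0.69 to 0.57 for Rps28 and -0.19 to 1.19 for Rps4l. For the difference of differences it gave -0.0906 to 0.93 for Rpl3 and -0.0762 to 0.76 for Rpl7l1. The causes were not tested.

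Titles give tumour and adjacent libraries of a plasmid the same numbers, without saying that a number is a mouse. Deviations of same-numbered libraries from their group means correlated at 0.096 (vector) and 0.193 (mA3) across genes. With the replicate number as a block, 0 members were called, and the medians were 0.07 over both plasmids, 0.24 in vector mice, -0.09 in mA3 mice and -0.30 for the difference of differences. The plasmid groups share fewer than 2 numbers, so no paired fit was made between them.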
